A study of Mus musculus with 15 samples.

Results

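Kidneys of mice without telomerase (generation 3 Tert-/-, here G3) were compared with kidneys of Tert+/+ mice (here WT), both given only the injection vehicle, in 8 of the 15 libraries of the series: 4 G3 vehicle and 4 WT vehicle. The members are all libraries whose labels give these 2 groups, and 14651 of the 19602 genes in the table were tested, those reaching a normalised count of 10 in 3 or more of the 15 libraries. Mice of 6 to 8 weeks received one intraperitoneal dose of 0.3 M NaHCO3 (200 µl), and on day 14 their kidneys were taken after perfusion with cold saline. G3 mice lack Tert in every tissue and descend from Tert-/- parents, so their genotype and their breeding history cannot be told apart. The other 7 libraries, WT (n = 3) and G3 (n = 4) kidneys after folic acid at 125 mg/kg, share the estimate of the spread and serve as a second look at the genotype. Each library is the 3′-end RNA-seq profile of 1 kidney sample, the values are counts divided by a size factor, and library numbers follow the order of deposition only.

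Telomerase adds telomere repeats to chromosome ends. Its catalytic protein is encoded by Tert. Without it telomeres shorten over generations, and short telomeres are known to engage p53, cell cycle arrest and senescence in dividing tissues. The study's title names a programme of epithelial to mesenchymal transition in kidneys with short telomeres, and the vehicle groups show what differed before folic acid was given. The mouse kidney is also one of the most sex-dimorphic organs. In its proximal tubule androgens raise one set of transporters and enzymes in males, and another set is higher in females.

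Xist and Y-linked RNA went against the labelled sex in 6 of the 8 vehicle libraries, and a seventh, WT vehicle 2, held both kinds. Xist, made from the inactive X chromosome, was 43, 3027, 42.2 and 84.9 in WT vehicle 1 to 4, all labelled female, and 3741, 5217, 3524 and 3939 in G3 vehicle 1 to 4, labelled male apart from G3 vehicle 3. The summed Y-linked genes Kdm5d, Uty, Ddx3y and Eif2s3y were 855, 283, 816 and 867 in WT vehicle and 6.1, 0.977, 7.57 and 5.01 in G3 vehicle. The WT libraries thus carried Y-linked RNA and the G3 libraries did not, and WT vehicle 2 carried both kinds. Y-linked RNA and genotype coincide in these 8 libraries, so the 2 cannot be told apart within them. Over all 15 libraries the labelled sex was contradicted in 10, and 2 more held both kinds of RNA. Whether samples or labels were exchanged, or libraries mixed, was not tested, and the genotype of each library below is that of its label. After folic acid the order turned: G3 folic acid 1 and 3 carried Y-linked RNA (694 and 668), G3 folic acid 4 carried both kinds, and G3 folic acid 2 and all WT libraries had a Y sum of 9.53 to 29.5.

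**Figure D1:**
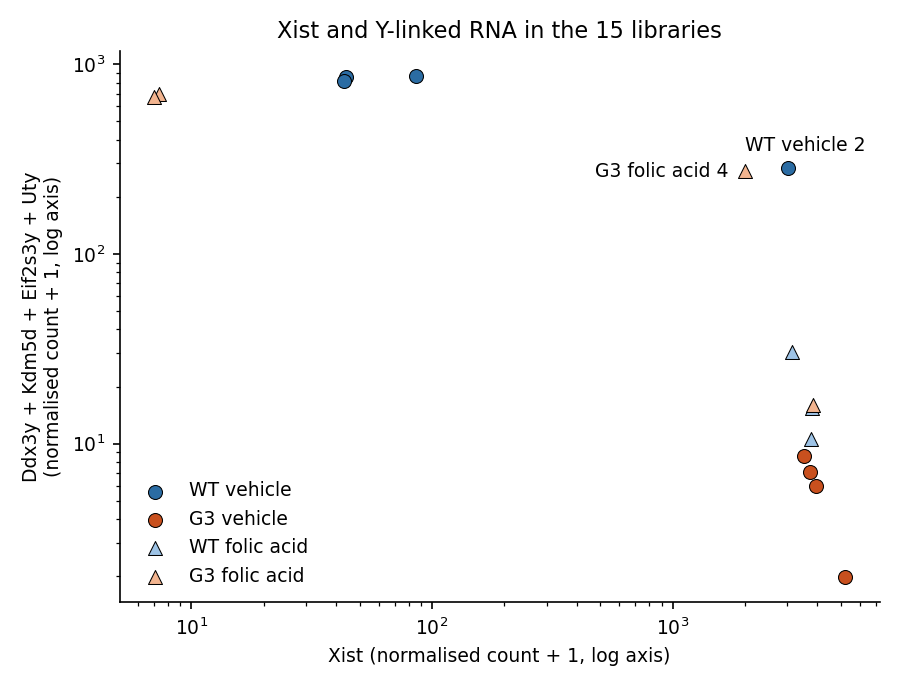
Xist (x axis) against the summed Y-linked genes Kdm5d, Uty, Ddx3y and Eif2s3y (y axis) in the 15 libraries, both as normalised count + 1 on log axes; circles are vehicle and triangles folic acid. 3 WT vehicle libraries sit at the upper left with Y sums of 816 to 867, all 4 G3 vehicle libraries at the lower right, and WT vehicle 2 and G3 folic acid 4 between them with both kinds of RNA.

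The 15 libraries had between 5014684 and 6609307 reads on genes, with a median of 6091019, and 1 read was worth 0.895 to 1.13 normalised counts. G3 vehicle 3 and 4 were the most alike pair, with a mean chi-square per gene of 2.86, against 3.00 for WT folic acid 2 and 3 and 7.07 for the next pair. Whether they came from 1 animal was not tested, and counting them as 1 library left 154 genes called. The labels do not say how animals map to libraries beyond 1 kidney sample each, so p-values measure the spread between these samples. Marker RNA of the kidney was present in every library: proximal tubule genes (21 measured) summed to 72551 to 108031 in WT and 73261 to 95538 in G3, and those of the thick limb and distal tubule (12) to 26380 to 29886 and 28828 to 31512.

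RNA of 425 genes differed between G3 and WT vehicle kidneys (limma, Benjamini-Hochberg adjusted p under 0.05, 2.9% of tested genes). Lower in G3 were 298 (2.03%) and higher 127 (0.867%). Of these, 155 of the lower and 69 of the higher genes differed by over 2-fold, 57 and 16 by over 4-fold. In 399 of the 425 all 4 G3 libraries lay on one side of all 4 WT libraries, and 11% of all tested genes did so. The count rested on which libraries were in: it was 89 without WT vehicle 1, 83 without WT vehicle 4, 234 without WT vehicle 3, and 242, 157 and 166 without G3 vehicle 2, 3 and 4, while without WT vehicle 2 it rose to 686. edgeR's quasi-likelihood test called 409 and DESeq2 called 787. Fold changes here are on the log2(normalised count + 1) scale, which understates the change of genes with few reads.

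The leading lower genes were transporters and enzymes of the male proximal tubule. Slco1a1, an organic anion transporter, was at 1524, 695, 1782 and 2005 in WT vehicle 1 to 4 and at 4.07, 1.95, 5.41 and 12 in G3 vehicle 1 to 4. It fell by 7.87 on the log2 scale (SE 1.19, 235-fold, limma adjusted p = 0.00283). No WT library was near a G3 library, and WT vehicle 2 was the lowest of its group. Slc7a13, a cystine and acidic amino acid transporter of the last proximal segment, was at 4484, 999, 4475 and 4324 in WT and 15.3, 12.7, 27 and 18 in G3 (log2 -7.36, SE 1.15, limma adjusted p = 0.00352). Cyp2j13, a cytochrome P450, was at 1399, 1018, 1260 and 1876 against 16.3, 4.88, 16.2 and 26.1 (log2 -6.52, SE 0.86, limma adjusted p = 0.00112). Kap, the kidney androgen-regulated protein and one of the most abundant RNAs here, was at 183232, 102528, 166992 and 183643 against 37481, 38883, 61931 and 61862 (log2 -1.67, SE 0.33, limma adjusted p = 0.0129), a call that ended without WT vehicle 1 or 4.

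All 11 genes of a list of male-biased kidney genes fell, with a median of log2 -4.53 where the median of all tested genes was 0.02. Besides those above they were Acsm3 (log2 -6.57), an acyl-CoA synthetase, the cytochromes Cyp7b1 (-5.19), Cyp4a12a (-4.53), Cyp4b1 (-3.77) and Cyp2e1 (-2.61), Odc1 (-2.14), which makes polyamines, and Nudt19 (-1.53), a coenzyme A hydrolase. In all 11 the 2 groups did not overlap and WT vehicle 2 was the lowest WT library. Among all tested genes 2.03% were called lower, 11% did not overlap and 31% had WT vehicle 2 as the lowest WT library. Without WT vehicle 2 all 11 still passed, with a median of log2 -4.71, and without WT vehicle 4 it was 6 with a median of -4.36. Of the 4 Y-linked genes all fell (median log2 -6.29), with Ddx3y at 429, 150, 413 and 426 in WT and 3.05, 0, 4.33 and 1 in G3. Off the lists, Ugt2b37 and Ugt2b38, which glucuronidate steroids and drugs, fell 63.9-fold and 15.4-fold, the transporter Slc22a30 16.8-fold and Azgp1, a secreted zinc-binding glycoprotein, 11.1-fold (limma adjusted p = 0.00119, 0.00262, 0.00171 and 0.000971). The Ugt2b, Cyp2 and Cyp4 families have near-identical members that may exchange reads.

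Pzp, a protease inhibitor of the alpha-2-macroglobulin family, had the smallest adjusted p of the named genes. It was at 364, 193, 414 and 444 in WT vehicle and at 5.08, 7.82, 6.49 and 3.01 in G3 vehicle, so that the lowest WT library stood far above the highest G3 library. The difference was 53.4-fold lower in G3, or log2 -5.74 (SE 0.46, limma adjusted p = 9.28e-06). Without WT vehicle 2 it was log2 -6.00. Because Slco1a1 and Pzp lead this side of the comparison, the 250 bases before their annotated starts (RefSeq, GRCm38.p6, printed 5′ to 3′ on the gene's minus strand) are shown. Slco1a1 is read from chr6:141946963-141947212, with each TATAAA or TTTATA in capitals, and Pzp from chr6:128526721-128526970, with AGAACA, one arm of the androgen and glucocorticoid receptor site, in capitals.
Slco1a1: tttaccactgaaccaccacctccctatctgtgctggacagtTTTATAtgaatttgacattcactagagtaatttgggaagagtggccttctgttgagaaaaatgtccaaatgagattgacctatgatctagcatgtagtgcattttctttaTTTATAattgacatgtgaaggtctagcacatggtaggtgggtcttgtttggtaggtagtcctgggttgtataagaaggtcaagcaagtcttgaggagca
Pzp: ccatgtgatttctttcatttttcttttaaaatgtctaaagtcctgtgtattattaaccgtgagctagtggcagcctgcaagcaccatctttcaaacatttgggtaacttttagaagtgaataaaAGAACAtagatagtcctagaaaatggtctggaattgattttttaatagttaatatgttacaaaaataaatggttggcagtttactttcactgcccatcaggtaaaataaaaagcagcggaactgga
Both strands were searched. TATAAA or TTTATA is held by 12.4% of the 32851 promoter windows of this length, by 6.88% of those of tested genes, 10.6% of those called lower, 8.0% of those called higher and 3 of 9 in the male-biased list. AGAACA or TGTTCT is held by 16.1% of all windows. Among the windows of genes called lower, 35 of 282 (12.4%) hold AGAACA or TGTTCT, among those called higher 13 of 125 (10.4%), and among all tested genes 11.2%. In the male-biased list 1 of 9 windows holds it, that of Cyp4b1. A match describes these letters only, not binding.

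The leading higher genes were those of the female kidney. Slc7a12, an amino acid transporter, was at 7.92, 293, 3.84 and 21 in WT and 303, 486, 807 and 727 in G3 (23.6-fold, log2 4.56, SE 0.99, limma adjusted p = 0.0209). Prlr, the prolactin receptor, was at 49.8, 1597, 62.4 and 104 against 2069, 2664, 1907 and 1904 (13.9-fold, log2 3.80, SE 0.91, limma adjusted p = 0.0317). Cyp4a14, a fatty acid hydroxylase, was at 36.2, 547, 52.8 and 66.9 against 1334, 2861, 1239 and 1425 (17.4-fold, log2 4.12, SE 0.76, limma adjusted p = 0.00924). In each of the 3, WT vehicle 2 lay far above the other WT libraries and below every G3 library. The error given pools the spread of all 4 groups. Without WT vehicle 2 the log2 differences were 5.79 for Slc7a12, 4.93 for Prlr and 4.97 for Cyp4a14 (limma adjusted p = 0.000839, 0.0011 and 0.000782). In edgeR only 1 of the 4 listed genes passed, Cyp4a14, and it was also the only 1 called without WT vehicle 1, 3 or 4 or without G3 vehicle 3 or 4. The call of Prlr ended in 7 of the 8 fits that left out 1 vehicle library. The remaining listed gene, the transporter Slc22a19, was at 209 to 331 in WT and 258 to 457 in G3 (log2 0.46, limma adjusted p = 0.407).

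Other higher genes handle retinoids, steroids, carbonyls and peroxides. Rdh16f2 (5.40-fold), a retinol dehydrogenase, Hsd17b14 (5.23-fold), a steroid dehydrogenase, Cbr1 (5.07-fold), a carbonyl reductase, Hao2 (3.96-fold), a peroxisomal hydroxyacid oxidase, and the glutathione transferases Gsta2 (4.79-fold) and Gsta4 (4.17-fold) rose, with limma adjusted p of 0.00971 to 0.0395. Padi2, which converts arginine to citrulline in proteins, rose 6.21-fold, and Ceacam2, an adhesion molecule, 4.43-fold (limma adjusted p = 0.00661 and 0.0189). WT vehicle 2 was the highest WT library in each of these 8. Cbr1 shows the pattern, at 232, 1289, 228 and 243 in WT and 1952, 1992, 1840 and 1542 in G3, and of the 8 fits without 1 vehicle library its call held only in that without WT vehicle 2.

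Scd1, the stearoyl-CoA desaturase, was at 642, 3424, 540 and 569 in WT and at 14699, 3653, 2614 and 2648 in G3 (4.84-fold, log2 2.27, SE 0.60, limma adjusted p = 0.0487). The groups overlapped, and G3 vehicle 1 stood far above the rest. That library also held the most fat tissue RNA: 7 adipose markers summed to 3690 there, to 252 to 611 in the other G3 libraries and to 129 to 204 in WT, and Adipoq, which adipocytes secrete, was at 297 in G3 vehicle 1 and 0 to 32.5 elsewhere in vehicle. None of the 5 adipose markers tested passed, and their median was log2 1.98. Without G3 vehicle 1 Scd1 was log2 1.69 (limma adjusted p = 0.0951), and its call held only in the fit without WT vehicle 2 among the 8 that left out 1 vehicle library. The part of fat in this difference was not tested.

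**Figure D2:**
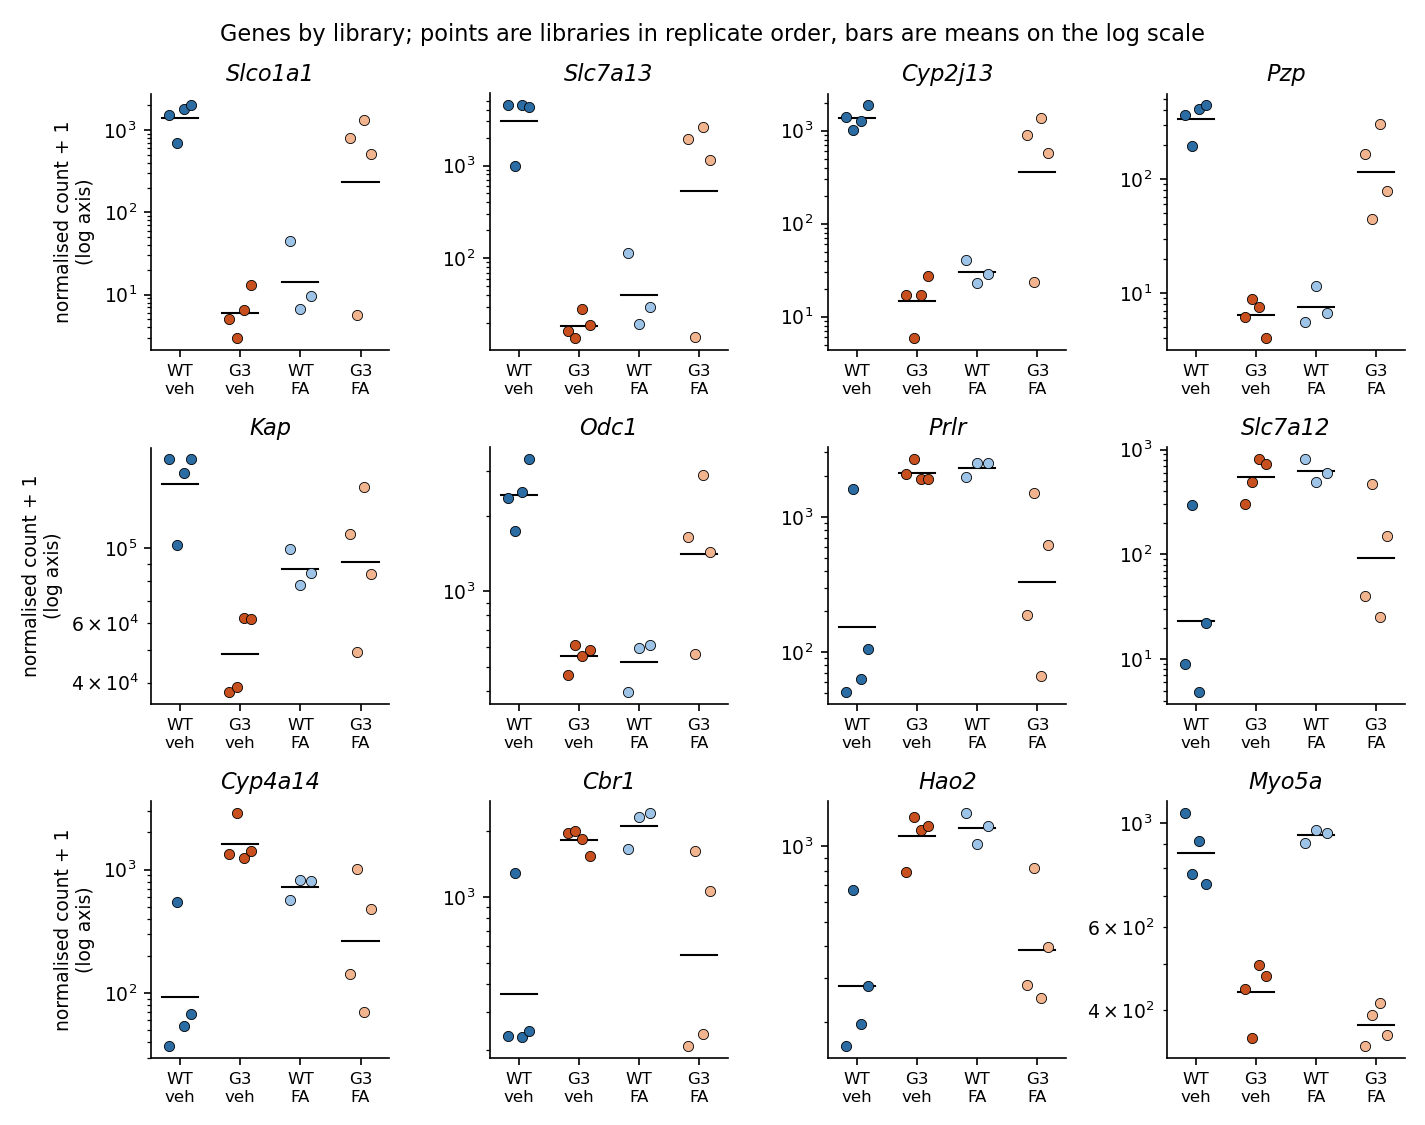
Normalised count + 1 (log axes, which differ between panels) of 12 genes in each library of the 4 groups; points run from replicate 1 on the left, and bars are means on the log scale. The low G3 vehicle values of Slco1a1, Slc7a13, Cyp2j13 and Pzp, the position of WT vehicle 2 near the G3 libraries for Prlr and Cbr1, and the gap between genotypes after both treatments for Myo5a can be seen.

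The 2 libraries with both kinds of RNA and the folic acid groups show how these genes go with Y-linked RNA inside a genotype. WT vehicle 2 was the lowest of the 4 WT vehicle libraries for 209 of the 298 lower genes (70.1%, against 31% of all tested genes) and the highest for 76 of the 127 higher genes (59.8%, against 29.9%). Within G3 mice after folic acid, which the vehicle contrast does not compare, libraries 1 and 3 with Y-linked RNA both exceeded library 2 without it for 270 of the 298 lower genes (90.6%, against 36.1% of all tested genes). Both were below library 2 for 96 of the 127 higher genes (75.6%, against 35.9%). Slco1a1 was 792, 4.70, 1323 and 514 in G3 folic acid 1 to 4, and Prlr was 189, 1492, 65.9 and 621. For all 11 male-biased genes libraries 1 and 3 exceeded library 2. Both libraries of mixed RNA lay between the others for Slco1a1 and Prlr.

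When each library's Y share was added to the fit (the Y sum over that of the highest library), Pzp alone was called (log2 -3.78, limma adjusted p = 0.0129), 0.00683% of tested genes, and 849 genes had an unadjusted p under 0.05. The Y share itself was called for 190 genes (1.3%), of which 83 were among the 425. The median of the 298 lower genes went from log2 -1.04 to -0.44, and that of the 127 higher genes from 1.06 to 0.46. Of the 425, 401 kept their sign, 93 of them at an unadjusted p under 0.05. The 425 were picked from the same libraries, so the 93 is not like for like with the 849. Y share and genotype nearly coincide in vehicle, so a lost call does not show that a difference was absent. Slco1a1 was then log2 -3.25, Slc7a13 -2.41, Cyp7b1 -0.65 and Cyp2e1 -0.002, and Prlr and Slc7a12 were -0.83 and -0.26, none of them called. This fit leaves part of the Y signal in place, since the Y-linked genes themselves still had a median of log2 -2.81. With log2 of the Y sum as the term, chosen after these values were seen, limma called 0 genes (431 at an unadjusted p under 0.05), and Pzp was log2 -3.45. The call of Pzp also ended without WT vehicle 2 (log2 -3.10, limma adjusted p = 0.931).

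**Figure D3:**
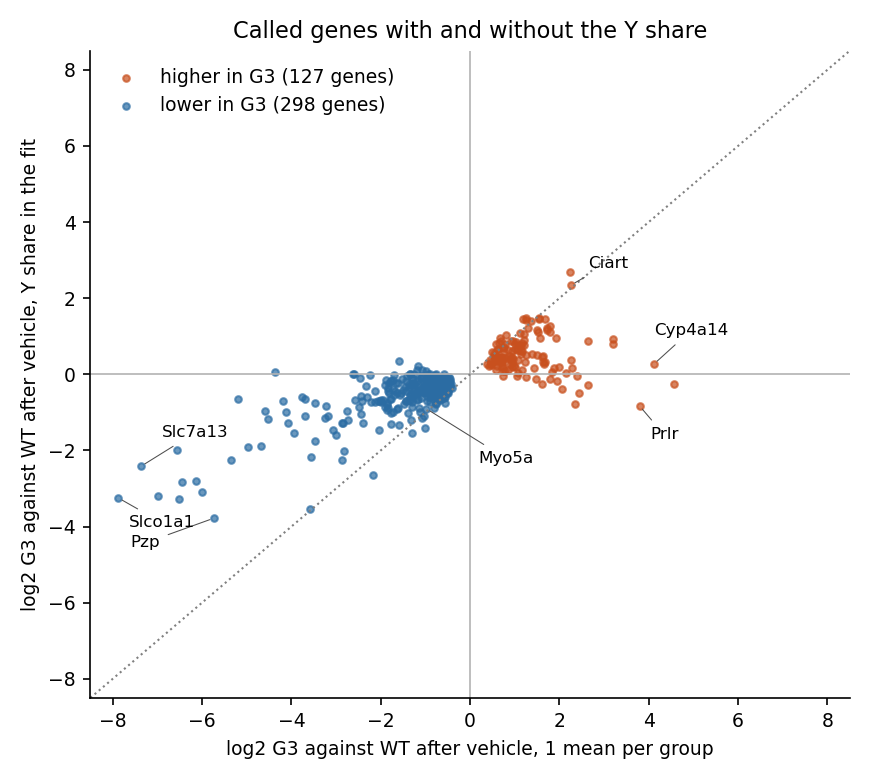
Log2 difference of G3 against WT vehicle for the 425 called genes, with 1 mean per group (x axis) and with the Y share as a covariate (y axis); the dotted line marks equal values. Most points lie between the line and 0, and Prlr falls below 0 with the Y share.

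A second view of the genotype came from the folic acid libraries, which are other kidneys, and in which 3 of the 4 G3 libraries had more Y-linked RNA than any WT library. G3 and WT differed in 337 genes there (2.3% of tested genes). WT folic acid 1 stood apart from every other library, with a mean chi-square per gene of 60.4 to 106 where no other pair exceeded 37.0, and with 23.0% of its reads on Gm42418 (4.85% to 8.15% elsewhere). Without it 615 genes were called after folic acid, and without WT folic acid 2 or 3 only 27 or 35. Of the 425 genes 295 had the opposite sign after folic acid and 130 the same sign. The share of opposite signs among all tested genes was not counted, so these 2 counts have no background beside them. Called in both comparisons were 28 with opposite signs, 21 of them lower in G3 after vehicle, and 7 with the same sign. Leaving out 1 library at a time moved these counts to 1 (without WT folic acid 2) to 121 (without G3 folic acid 2) with opposite signs, and to 1 (without WT folic acid 2 or 3) to 18 (without WT folic acid 1 or G3 vehicle 1) with the same sign. The genotype differences after the 2 treatments differed from each other for 560 genes (limma interaction, 3.82%), Slco1a1, Pzp and Prlr among them.

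The 7 genes called after both treatments with the same sign were Myo5a, Osbpl8, Tmem189, Mrps27, Prok1 and Slc22a7, all lower in G3, and Ciart, higher. They were picked for this after their values were seen, so the values describe them. Myo5a, the myosin Va motor that carries vesicles and pigment granules, was at 1047, 775, 912 and 739 in WT vehicle and 442, 348, 497 and 471 in G3 vehicle (log2 -0.98, SE 0.13, limma adjusted p = 0.00119). After folic acid it was at 905, 966 and 951 in WT and 334, 389, 414 and 352 in G3 (log2 -1.34, limma adjusted p = 0.000201). None of the 8 G3 libraries reached any of the 7 WT libraries, whatever their Y-linked RNA. With the Y share in the fit Myo5a was log2 -0.90 (unadjusted p = 0.000825, limma adjusted p = 0.747), and it was called in both comparisons in each of the 15 fits that left out 1 library, at log2 -0.87 to -1.05 after vehicle.

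Osbpl8, a lipid exchange protein of the endoplasmic reticulum, was at 685 to 822 in WT vehicle and 451 to 506 in G3 vehicle, with log2 -0.65 after vehicle and -0.63 after folic acid. Tmem189, which makes the vinyl ether bond of plasmalogens, was at 925 to 1122 and 571 to 712 (log2 -0.74 and -0.69), and Mrps27, of the mitochondrial ribosome, at 77.9 to 127 and 20.6 to 50.8 (-1.31 and -1.25). These 3 were called in both comparisons in 13, 12 and 12 of the 15 fits. Prok1 (prokineticin 1, a secreted ligand) and Slc22a7 (an organic anion transporter) were log2 -0.81 and -0.78 after vehicle and -0.78 and -1.02 after folic acid, and were called in both in 2 and 4 of the 15 fits. Without WT folic acid 2 or 3 Myo5a alone of the 7 was called in both.

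Ciart, a repressor of the circadian clock, had few reads: 1.13, 0.948, 1.92 and 2 in WT vehicle and 7.12, 5.86, 18.4 and 17 in G3 vehicle (log2 2.27, SE 0.54, limma adjusted p = 0.0315), with log2 2.77 after folic acid. Of the vehicle libraries only G3 vehicle 3 and 4, the most alike pair, reached the normalised count of 10 that the filter asks. Within vehicle, Ciart thus entered the test through the group where it was high. It was the only 1 of 19 clock genes called, where 0.867% of all tested genes rose. The list's median was log2 0.41, with 14 of the 19 positive. Its summed level was 4515 to 5423 in WT vehicle, and 4426, 4912, 6553 and 7061 in G3 vehicle 1 to 4. Ciart was called in both comparisons in 6 of the 15 fits. The sources used here do not give the hour of dissection. The 250 bases before the starts of Ciart (chr3:95882229-95882478, minus strand), with each CACGTG, the E-box that clock activators bind, in capitals, and of Myo5a (chr9:75070956-75071205, plus strand, no motif marked) are shown for the gene that rose and the one that fell most steadily across treatments (RefSeq, GRCm38.p6).
Ciart: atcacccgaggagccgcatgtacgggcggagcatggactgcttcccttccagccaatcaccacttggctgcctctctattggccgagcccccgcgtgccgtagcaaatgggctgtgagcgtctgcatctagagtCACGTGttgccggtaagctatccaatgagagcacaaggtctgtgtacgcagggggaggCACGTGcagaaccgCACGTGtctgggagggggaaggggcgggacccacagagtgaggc
Myo5a: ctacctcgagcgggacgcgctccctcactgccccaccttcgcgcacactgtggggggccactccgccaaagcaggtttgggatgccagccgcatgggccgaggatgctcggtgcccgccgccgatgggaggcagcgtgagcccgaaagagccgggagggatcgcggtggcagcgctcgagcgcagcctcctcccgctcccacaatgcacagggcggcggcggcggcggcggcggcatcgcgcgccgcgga
Ciart holds 3 matches to CACGTG, which reads the same on both strands and is found in 6.02% of all windows and 8.15% of those of tested genes.

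**Figure D4:**
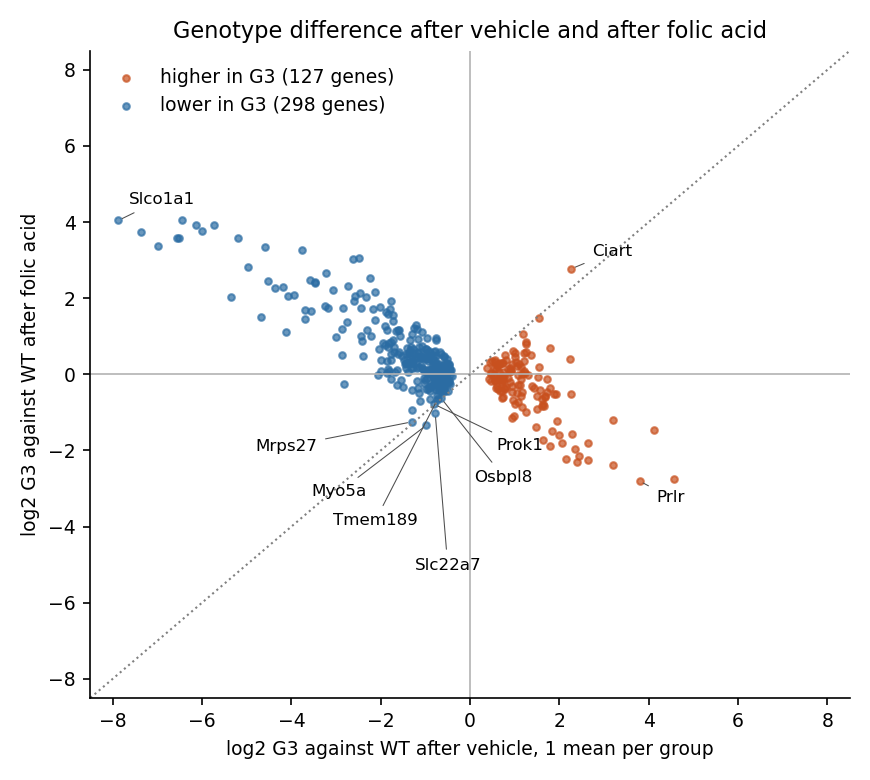
Log2 difference of G3 against WT after vehicle (x axis) and after folic acid (y axis) for the 425 genes called after vehicle; the dotted line marks equal values. 295 points have opposite signs in the 2 comparisons, the largest of them Slco1a1, and the 7 genes called in both with the same sign are labelled beside Slco1a1 and Prlr.

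Tert itself was at the edge of detection and did not separate the groups. It was at 22.6, 7.58, 15.4 and 3 in WT and 6.10, 2.93, 15.1 and 9.02 in G3 (log2 -0.39, SE 0.56, limma adjusted p = 0.769). The sources used here do not give the deleted exons, and with reads from the 3′ end the level is no check of the genotype. Within 10 Mb of Tert on chromosome 13, 3 of 96 tested genes were called (3.12%, with 2.9% of all genes), all lower: Srd5a1, Zfp729a and Habp4. Srd5a1, the steroid 5-alpha reductase that makes dihydrotestosterone, was at 84.4 to 133 in WT and 21.5 to 38.1 in G3 (log2 -1.86, SE 0.29, limma adjusted p = 0.00324), Zfp729a was log2 -1.03 and Habp4 -0.80. All 3 were at log2 0.04 to 0.55 after folic acid. On chromosome 13 as a whole 24 of 570 tested genes were called (4.21%), on the X chromosome 7 of 418 and on the Y chromosome 5 of 7.

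Among 18 measured genes of telomerase, shelterin and their partners 1 fell and none rose, where 2.03% of all tested genes fell. Nhp2 was at 459, 213, 371 and 378 in WT and 126, 109, 121 and 139 in G3 (log2 -1.46, SE 0.27, 2.76-fold lower, limma adjusted p = 0.00971). Across the list the median was log2 0.01. The call of Nhp2 ended without WT vehicle 1, and without WT vehicle 2 the list held 2 lower genes. Nhp2 binds H/ACA RNAs, the telomerase RNA among them. Its level went with Y-linked RNA (limma adjusted p = 0.0181 for the Y share), it was log2 -0.32 with the Y share in the fit, and after folic acid it was 0.28.

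None of 22 p53 targets, 8 senescence genes, 13 DNA damage genes and 11 genes of the PGC-1 axis were called by limma (3, 1, 0 and 2 at an unadjusted p under 0.05), with medians of log2 -0.12, 0.01, -0.01 and 0.06. With 2.9% of all tested genes called, lists this short can hold 0 calls. Without WT vehicle 2, 1 senescence gene passed as lower. Cdkn1a, the cell cycle inhibitor p21, was at 234, 198, 274 and 270 in WT and at 411, 370, 130 and 142 in G3 (log2 -0.07, SE 0.29, limma adjusted p = 0.930). Its 4 G3 values fell into a high and a low pair on either side of every WT value. Ppargc1a, the coactivator PGC-1 alpha, was at 626 to 758 in WT and 754 to 833 in G3 (log2 0.17, limma adjusted p = 0.421), and Kl, the anti-ageing hormone Klotho, at 421 to 708 and 413 to 659 (log2 -0.20, adjusted p = 0.745).

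Genes of epithelial to mesenchymal transition and of matrix did not pass after vehicle alone. The share called among all tested genes was 2.9%, at which lists of this size can hold few or no calls. Of 14 transition genes tested limma called 0 (2 at an unadjusted p under 0.05), with a median of log2 0.27, or -0.11 with the Y share. Vim (vimentin) was at 175 to 227 in WT and 213 to 365 in G3 (log2 0.31, SE 0.25), Fn1 (fibronectin) at 36.2 to 79.6 and 22.5 to 98.2 (log2 0.20, SE 0.54), and the transition factors Zeb1 and Zeb2 at log2 0.05 and -0.001. Snai1 had 0 to 1.92 normalised counts in WT and 1.95 to 5.01 in G3 and was not tested. Cdh1 (E-cadherin) was at 1020 to 1411 and 936 to 1461 (log2 0.03, SE 0.14), and 0 of 17 epithelial junction genes were called. Of 35 matrix genes 0 were called (1 at an unadjusted p under 0.05), with a median of log2 0.17, or -0.11 with the Y share, and Col1a1 was at 146 to 183 and 80.1 to 331 (log2 0.17, SE 0.54). With library weights, 1 matrix gene and 1 gene of the PGC-1 axis passed as higher and 1 transition gene, 1 p53 target and 1 senescence gene as lower. DESeq2 and edgeR called none in these 5 lists.

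Among 16 tubular injury genes 1 rose and 1 fell, where 0.867% and 2.03% of all tested genes did. Spp1, the secreted phosphoprotein osteopontin, was at 327, 624, 500 and 402 in WT and 774, 1132, 1154 and 1306 in G3 (2.38-fold, log2 1.25, SE 0.29, limma adjusted p = 0.0267), and its call ended in 6 of the 8 fits without 1 vehicle library. Il34, a ligand of the macrophage colony stimulating factor receptor, was at 269, 180, 195 and 304 against 67.1, 61.5, 73.6 and 101 (log2 -1.62, SE 0.33, limma adjusted p = 0.0145), and its call ended without WT vehicle 1 or 4. For both the groups did not overlap, which held for 93.9% of called genes and 11% of all tested genes. Havcr1 (KIM-1) and Lcn2 (lipocalin 2), which mark injured tubules, were at 0 to 9.02 and 1.90 to 26.1 over the 8 libraries (limma adjusted p = 0.968 and 0.813).

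Proximal tubule markers moved both ways. Slc22a6, which takes organic anions from blood, was at 2904, 1932, 3279 and 4107 in WT and 956, 1594, 1027 and 1293 in G3 (log2 -1.30), Ggt1, the brush border peptidase, was at 5359 to 7480 and 2760 to 3043 (log2 -1.10), and Cubn, the endocytic receptor cubilin, at 374 to 486 and 440 to 755 (log2 0.57, limma adjusted p = 0.0499). The other 18 of 21 did not pass, and 2.9% of all tested genes were called. Each of the 3 calls ended in at least 4 of the 8 fits without 1 vehicle library. In other cell types 1 collecting duct gene (Atp6v1b1, a proton pump subunit, log2 0.65) and 1 mural cell gene (Rgs5, log2 0.43) rose. Fcgr1, a macrophage Fc receptor, was at 4.52, 3.79, 0.959 and 6.99 in WT and had no read in any G3 vehicle library, and of the 8 fits without 1 vehicle library its call held only in that without WT vehicle 3. The other 18 macrophage genes did not pass, and the list summed to 1398 to 1867 in WT and 1137 to 1783 in G3. Thick limb, podocyte, endothelial, T cell, B cell and neutrophil lists had 0 calls. So had those of interferon response (20 tested), antigen presentation (12) and the unfolded protein response (13). Summed levels did not overlap for 3 of these immune, stress and cell type lists: antigen presentation was at 4537 to 5829 in WT and 6502 to 7659 in G3, the unfolded protein response at 10113 to 11364 and 7545 to 9999, and neutrophil genes at 186 to 246 and 120 to 180. Sums were also apart for the heat shock, tubular injury, adipose, fatty acid oxidation and cholesterol synthesis lists, and for the lists of sex-biased and sex-linked genes. For comparison, 11% of all single genes tested did not overlap. In whole kidney, fewer cells of a type and less RNA per cell cannot be told apart.

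Metabolic lists held 1 to 4 called genes each, beside 2.9% of all tested genes. In fatty acid oxidation (21 tested) Crot, which moves medium chain acyl groups out of peroxisomes, was at 2546, 889, 2135 and 2142 in WT and 407, 446, 508 and 566 in G3 (log2 -1.90, SE 0.33, limma adjusted p = 0.00609). Hadhb and Acaa2, enzymes of the mitochondrial spiral, rose (log2 0.57 and 0.67). The call of Crot held in all 8 fits without 1 vehicle library, and those of Hadhb and Acaa2 ended in 4 and 6 of them. In amino acid breakdown (22 tested) Hpd, Gldc and Oat rose (log2 1.64, 1.61 and 1.06) and Haao fell (-0.93), the enzymes of tyrosine, glycine, ornithine and tryptophan use. No gene of this list passed without WT vehicle 1 or 4 or without G3 vehicle 2 or 4. Sqle and Idi1 of 18 cholesterol synthesis genes fell (log2 -0.93 and -1.70; none passed without WT vehicle 1 or 4), as did 1 of 11 NRF2 targets, Me1, the malic enzyme that makes NADPH (-1.10).

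Pdk1, which holds back pyruvate oxidation, rose and Ldha, lactate dehydrogenase, fell (log2 0.72 and -0.68). Of 11 heat shock genes 3 fell, where 2.03% of all tested genes did. They were Hspe1 (log2 -0.86), Hsp90aa1 (-0.74) and Hspa8 (-0.48), the last at 1625 to 1792 in WT and 1188 to 1286 in G3. In edgeR 2 of the 11 fell. None passed without WT vehicle 1 or 4, without G3 vehicle 3 or 4, or with G3 vehicle 3 and 4 averaged. Cycs (cytochrome c, log2 -0.66) was the only 1 of 27 nuclear respiratory chain genes called, mt-Nd6 (log2 -0.81) the only 1 of 13 mitochondrial genes, Nusap1 (log2 -1.21) the only 1 of 17 cell division genes, and Klf2 (log2 0.72) the only 1 of 14 immediate early genes. Among all tested genes 0.867% were called higher and 2.03% lower. In all, 20 of the 45 lists with a tested gene held a call and 25 held none. How many lists would hold a call at these shares was not counted, so the 20 and 25 have no background beside them. With the Y share in the fit none of the genes of these metabolic, stress and cell type lists was called, and Crot was log2 -0.29, Idi1 -0.03 and Oat 0.02.

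**Figure D5:**
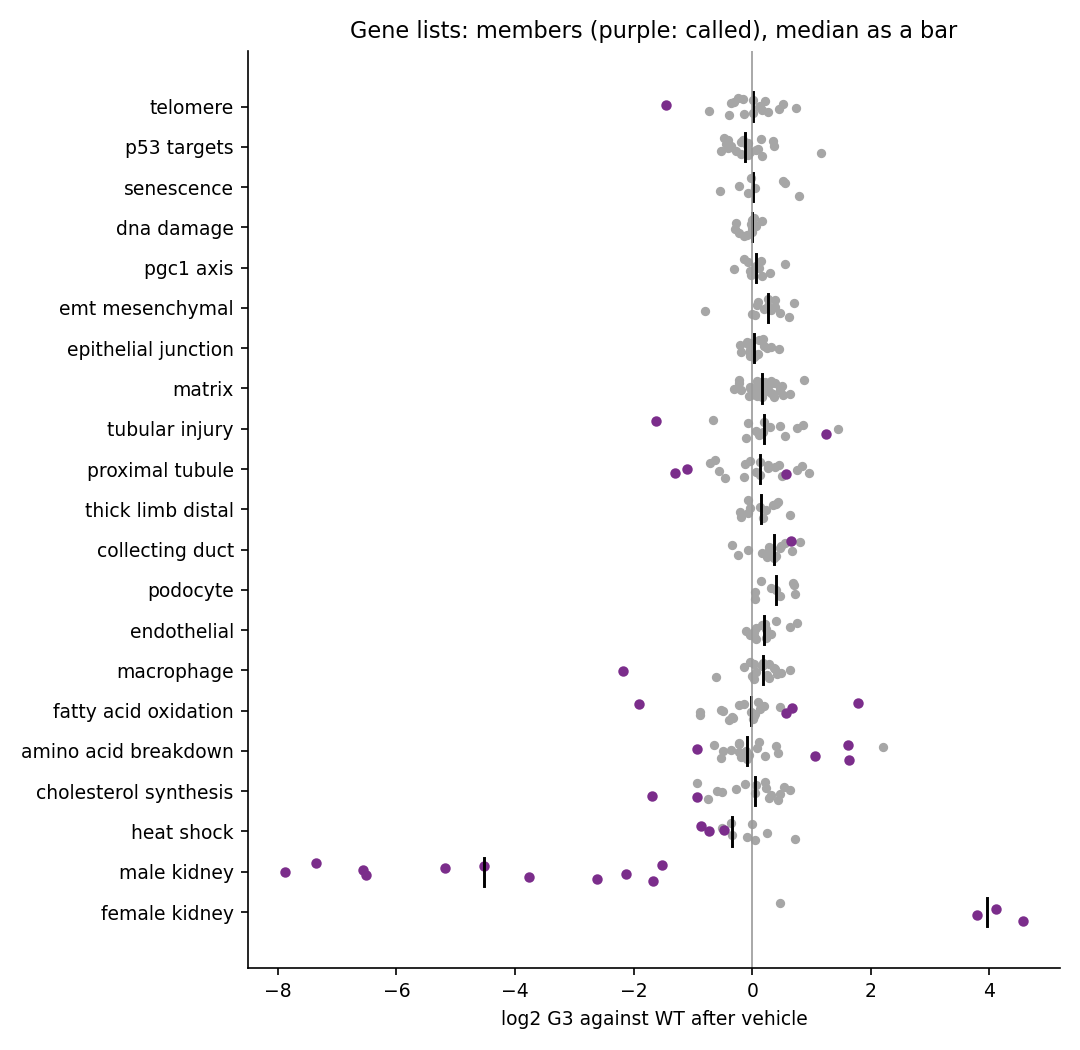
Log2 difference of G3 against WT vehicle for the tested members of 21 lists (points, spread vertically for visibility), with called genes in purple and the list's median as a bar. Male kidney genes lie from -7.87 to -1.53 and 3 of 4 female kidney genes above 3, while the medians of the other lists stay within 0.5 of 0.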

How the data were processed

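Whole-kidney RNA was profiled with a stranded 3′-end kit, and reads were counted with the matching strand setting, per the labels' protocols. The submitters' processing notes name FastQC 0.11.7, TopHat2 2.0.10, Bowtie 1.0.0, SAMtools 0.1.19, HTSeq 0.6.1, DESeq2 and GRCm38. The sources used here do not name the annotation or a gene filter. Values in the deposited table are a signal, gene counts that the authors scaled by a size factor of each library. All values (100%) were whole multiples of 1 step per library within 0.001, which gave back whole reads for all 15 libraries. Positions came from GENCODE M21 (19509 symbols matched), and promoter windows from RefSeq (66 of 87 named genes).

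log2(value + 1) of 14651 genes was fitted with limma 3.58.1 (trend, R 4.3.3) over 15 libraries, with 1 mean per group, and again with the Y share. Benjamini-Hochberg adjustment covered all tested genes, with calls under 0.05. An earlier fit of this series used the labelled sex, which Xist and Y-linked RNA contradicted, so it is an alternative here. Members, lists and tests were chosen with earlier results of these data known. Replicate numbers follow accession order and pair nothing.

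Genes were named by rule: the 12 largest called changes each way with a mean of at least 20 in vehicle, without Xist, Y-linked genes and gene models of predicted name; the 10 largest each way with the Y share; 2 called genes of smallest p per list; a panel (Tert, Cdkn1a, Havcr1, Lcn2, Col1a1, Vim, Fn1, Snai1, Zeb1, Zeb2, Cdh1, Ppargc1a, Kl); and called genes within 10 Mb of Tert. Genes outside it, chosen after their values were seen, are Kap, Odc1, Cyp2e1, Nudt19, Slc22a19, Kdm5d, Eif2s3y, Xist, Adipoq, Cubn, Acaa2, Oat, Haao, Hsp90aa1 and the genes called after both treatments. The result for 1 gene is not reported here. Alternatives were other covariates, filters, pseudocounts (0.5 and 5), TMM and quantile scaling, no trend, library weights, DESeq2 1.42.0 and edgeR 4.0.16 on the reads recovered, the 2 vehicle groups alone, G3 vehicle 3 and 4 averaged, and leaving out libraries. Scripts were tested on simulated data.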

Additional observations from a re-analysis of the deposited data

Results flagged for a closer look

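Single libraries stood apart from the rest of their group for 21 of the 174 gene and group pairs looked at. These were 87 genes in 2 groups of 4. The test took the gap to the nearest library over the range (Dixon's test) on normalised counts. It flags about 1 in 20 sets of independent normal values. The 87 genes are not independent and most were named for their vehicle difference, so 21 of 174 has no like background. WT vehicle 2 was the library in 14 of the 21. It was the low one for Slc7a13 (999, the others 4324 to 4484), Acsm3 (897), Ddx3y (150) and Uty (70.1). It was the high one for Slc7a12 (293), Cyp4a14 (547), Prlr (1597), Rdh16f2 (528), Cbr1 (1289), Scd1 (3424), Ceacam2 (159), Gsta4 (238), Xist (3027) and Fn1 (79.6, the others 36.2 to 41).

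G3 vehicle 1 was the high one for Scd1 (14699), Me1 (1163, the others 759 to 818) and Adipoq (297). G3 vehicle 2 was the high one for Cyp4a14 (2861), Rdh16f2 (1058), Cyp2e1 (219) and Ppargc1a (833).

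The genotype difference after vehicle differed from that after folic acid for 55 of these 87 genes (limma interaction, adjusted p under 0.05). It did so for 3.82% of all tested genes. Most of the 87 were named for their difference after vehicle, which the interaction uses again, so the 2 shares are not like for like. The difference is given as vehicle minus folic acid, on the log2 scale. Among the named genes of largest fall in G3 vehicle and the male-biased list it was Slco1a1 -11.92, Slc7a13 -11.10, Acsm3 -10.14, Cyp2j13 -10.11, Ugt2b37 -9.76, Pzp -9.66, Cyp7b1 -8.78, Cyp4b1 -7.03, Cyp4a12a -6.99, Slc22a30 -6.12, Ugt2b38 -6.03, Azgp1 -5.90, Cyp2e1 -5.65, Odc1 -3.56 and Nudt19 -2.01. Among Y-linked genes and Xist it was Uty -10.49, Ddx3y -10.35, Kdm5d -10.04, Eif2s3y -7.95 and Xist 9.42, and among the female kidney genes Slc7a12 7.32, Prlr 6.60, Cyp4a14 5.57 and Slc22a19 2.16. Negative too were Fcgr1 -3.89, Il34 -2.77, Crot -2.68, Nusap1 -2.51, Idi1 -2.43, Slc22a6 -2.36, Srd5a1 -1.90, Nhp2 -1.74, Zfp729a -1.58, Me1 -1.55, Ggt1 -1.35, mt-Nd6 -1.31, Sqle -1.04, Habp4 -0.97, Cycs -0.89 and Hspa8 -0.75. Positive too were Ppargc1a 0.63, Hadhb 0.75, Pdk1 0.87, Oat 1.79, Gldc 2.27, Gsta2 2.79, Hpd 3.35, Hao2 3.59, Scd1 3.85, Gsta4 3.88, Cbr1 4.30, Ceacam2 4.36, Padi2 4.43, Rdh16f2 4.57 and Hsd17b14 4.69. In these groups the library content of Y-linked RNA turned between the treatments as well, and its part was not tested apart from the fit with the Y share. Ppargc1a (log2 -0.46, limma adjusted p = 0.0407) and Slc22a19 (log2 -1.69, limma adjusted p = 0.0138) were called after folic acid but not after vehicle.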

How the results depend on the processing

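The count of 425 called genes stayed within 1.5 times with TMM scaling, quantile scaling, edgeR, the 2 vehicle groups alone, both pseudocounts and both filters. It was 787 with DESeq2, 1492 with library weights, 216 without a trend, 154 with G3 vehicle 3 and 4 averaged, 17 with the labelled sex, 1 with the Y share, 37 with log2 Xist, 0 with log2 of the Y sum and 1 (Pzp) with the series of sample title numbers as terms. Leaving out 1 vehicle library gave 83 to 686, and leaving out WT folic acid 1 gave 638. The title series nearly repeat the groups, the labels do not call them a batch, and that fit rests on WT vehicle 4 against G3 vehicle 4. With the Y share, the 1 call became 10 with DESeq2 and 37 with log2 Xist in its place. It became 0 with the labelled sex added, without a trend, with the title series, or with log2 of the Y sum in place of the Y share. Without 1 vehicle library it was 0 to 1. Without the 2 libraries of mixed RNA the 1 call was Xist, not Pzp. Xist was lower in G3 in that fit, though its normalised counts were higher in G3 vehicle than in WT vehicle. The causes were not tested. Of 71 named called genes 23 stayed called in all 8 fits without 1 vehicle library, and none changed sign in those. Signs turned with the Y share for 6 genes (log2 Slc7a12 -0.26, Prlr -0.83, Rdh16f2 -0.49, Hsd17b14 -0.038, Cbr1 -0.78 and Gsta4 -0.38) and with log2 of the Y sum for 33 (log2 Slco1a1 1.06, Slc7a13 1.41, Acsm3 1.98, Cyp7b1 1.33, Cyp4a12a 1.65, Cyp4b1 1.54, Slc7a12 -0.54, Cyp4a14 -0.70, Prlr -1.44, Rdh16f2 -1.20, Hsd17b14 -0.52, Cbr1 -1.31, Gsta2 -0.18, Ceacam2 -0.13, Gsta4 -1.19, Hao2 -0.24, Ddx3y 0.11, Nhp2 0.29, Nusap1 0.049, Cycs 0.15, Crot 0.10, Hpd -0.41, Ldha 0.065, Me1 0.45, Klf2 -0.067, Habp4 0.066, Slc22a7 0.066, Kap 0.16, Cyp2e1 0.99, Nudt19 0.59, Eif2s3y 1.97, Oat -0.65 and Haao 0.0093). None of these 33 genes was called with log2 of the Y sum, and several of the values lie near 0. The Y sum in G3 vehicle was 0.977 to 7.57, a few reads, so its log2 carries large counting error. No paired analysis was possible because replicate numbers follow accession order and the labels pair no samples. Genes under about 10 reads, such as Havcr1, Snai1 and Ciart, carry large counting error at this depth.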
